A study of Mus musculus with 13 samples.

Results

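A set of 10 genes that mark type 1 conventional dendritic cells (cDC1) was followed across splenic dendritic cells sorted by surface CD103, with and without a bacterial cell wall fragment. They are Cd8a, Ly75, Cadm1, Cd24a, Cd36, Btla, Itgax, Wdfy4, Naaa and Gcsam, chosen as known surface and identity markers of this cell type. Of 22180 genes with a probe set of their own, all 10 were measured, each by its brightest probe set on average. Spleen cells came from C57Bl/6 littermates, labelled male, that were given B16 melanoma cells secreting FLT3L under the skin at 6 weeks of age. FLT3L is a growth factor that expands dendritic cells, so the cells of every group come from an expanded, tumour-bearing host. The mice were injected in the peritoneum 5 days later with 100 ul of PBS alone or with 50 ug of muramyl dipeptide (MDP), a peptidoglycan fragment sensed by NOD2. After 24 h, CD205+CD8+ dendritic cells were sorted into CD103 low and CD103 high cells, and the question is whether the subsets and the treatment differ in these transcripts. Of the 13 arrays, 7 hold cells of PBS mice, 4 of them CD103 low and 3 CD103 high, and 6 hold cells of MDP mice, 3 of each kind. The labels do not say whether arrays stand for separate animals, so p-values cover only the spread from array to array, which may be technical in part.

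The cDC1 lineage depends on the transcription factors IRF8 and BATF3 and is known for taking up dead cells and presenting their antigens to CD8 T cells. In mouse spleen it is recognised by the CD8 alpha chain, which forms homodimers there, and by CD205, an endocytic lectin receptor encoded by Ly75. CD103, the alpha E integrin encoded by Itgae, is carried by part of these cells. The sort therefore selected on the proteins of Cd8a and Ly75 in every group, and on the protein of Itgae between groups. Signals are log2 values after RMA, an array normalization, so a difference of 1 is a 2-fold difference. Levels of different genes are not compared, since each probe set has its own response.

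Promoter sequences, the 250 bases before the start of each gene, were at hand in RefSeq (GRCm38.p6) for 8 of the 10 genes, all but Cadm1 and Cd24a. They were searched on both strands for 11 motifs, each as exact letters, with N for any base. Capitals below mark matches to 4 of them, picked after the matches were seen as motifs of factors tied to dendritic cells, and Ly75 is shown because its transcript varied most between arrays. The ETS-IRF composite motif, GGAA followed after any 2 bases by GAAA, was in 2.30% of all 32851 promoters and, among these genes, in Cd8a, with both matches on the opposite strand, 158 and 136 bases before the start. The PU.1 motif GAGGAAGT was in 2.44% of all promoters and in Btla, 18 bases before the start. The AP-1 motif TGANTCA was in 6.75% of all promoters and in Itgax, 56 bases before the start. The Cd8a stretch is chr6:71373177-71373426 (plus strand), that of Btla chr16:45224087-45224336 (plus strand), that of Itgax chr7:128129300-128129549 (plus strand) and that of Ly75 chr2:60383274-60383523 (minus strand).
Cd8a: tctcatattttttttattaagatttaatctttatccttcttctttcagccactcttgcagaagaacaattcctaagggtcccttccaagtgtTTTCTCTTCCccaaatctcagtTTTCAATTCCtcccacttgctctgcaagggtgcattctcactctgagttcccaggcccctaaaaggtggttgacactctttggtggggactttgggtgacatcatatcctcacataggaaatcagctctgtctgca
Btla: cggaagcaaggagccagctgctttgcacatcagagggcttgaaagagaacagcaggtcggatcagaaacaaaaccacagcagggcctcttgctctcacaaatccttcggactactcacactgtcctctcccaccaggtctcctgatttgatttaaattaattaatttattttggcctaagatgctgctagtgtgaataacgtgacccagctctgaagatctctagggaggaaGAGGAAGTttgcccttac
Itgax: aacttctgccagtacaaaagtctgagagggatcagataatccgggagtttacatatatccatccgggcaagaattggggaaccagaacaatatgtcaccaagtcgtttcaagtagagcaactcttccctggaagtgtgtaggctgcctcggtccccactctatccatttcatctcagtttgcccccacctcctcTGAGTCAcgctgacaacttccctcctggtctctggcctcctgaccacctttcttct
Ly75: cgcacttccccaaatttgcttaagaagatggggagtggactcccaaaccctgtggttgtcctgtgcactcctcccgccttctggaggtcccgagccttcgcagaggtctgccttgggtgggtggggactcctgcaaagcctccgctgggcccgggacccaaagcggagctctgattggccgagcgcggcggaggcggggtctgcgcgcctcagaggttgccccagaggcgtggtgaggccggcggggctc

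The Ly75 stretch held none of the motifs in capitals, and its GC content was 66.8% against a median of 52.4% over all promoters. The interferon response core, GAAA followed after any 2 bases by GAAA and present in 2.98% of all promoters, was in 0 of the 8. Among the other motifs, the ETS core AGGAAG, which overlaps the PU.1 motif, was in 3 of the 8 (Wdfy4, Btla and Gcsam) and 29.5% of all promoters, and the RUNX motif TGTGGT in 3 (Ly75, Wdfy4 and Btla) and 14.05%. The C/EBP motif TTGCNNAA was in 2 (Ly75 and Cd8a) and 9.56%, and the E-box CAGCTG in 1 (Btla) and 13.001%. The NF-kB motif, GGGA and TTTCC with any base between (0.356% of all promoters), the TATA box TATAAA (12.4%) and the STAT motif TTCNNNGAA (7.02%) were in 0 of the 8. A match of letters is a description of the window, not a binding site. Btla and Gcsam are near neighbours on chromosome 16.

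Array medians ran from 5.00 to 5.13. Background was read from the olfactory receptor genes, whose median was 2.97, and 5.11, their 95th percentile, is called the background mark here. Xist, a long RNA made from the inactive X chromosome, was at 10.98 to 11.21 on 7 arrays and at 4.47 to 6.69 on 6, although all mice are labelled male. Eif2s3y, Kdm5d and Uty, which lie on the Y chromosome, averaged 3.50 to 4.39 on the former and 7.85 to 8.21 on the latter arrays, and every group held arrays of both kinds. The arrays of a group thus did not all come from the same animal, although the number of animals is not known. MDP CD103 low replicate 1 stood apart from its group, with a mean of 9.07 over 18 measured genes of mature, CCR7-type dendritic cells against 7.88 and 7.94 on the other arrays of its group.

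All 10 genes were expressed far above background on every array, and none separated the groups after correction. Their means over the 13 arrays ran from 9.30 for Ly75 to 13.004 for Naaa, where the highest value of any probe set on an array was 13.7 to 14.5. In limma fits with Benjamini-Hochberg adjustment over all 22180 genes, 0 of the 10 passed an adjusted p of 0.05 between CD103 high and low cells of PBS mice, where 0.0766% of all genes passed. None passed between the subsets of MDP mice (0.523% of all genes) or between MDP and PBS in CD103 low cells (0.00451%) or CD103 high cells (1.82%). The same count, 0 of 10, held for the difference between subsets averaged over treatments (0.126% of all genes), for MDP averaged over subsets (0.185%) and for the interaction of both (0.0721%). At an unadjusted p under 0.05, limma listed Cadm1 in the first comparison and in the average over treatments, and Ly75 between the subsets of MDP mice. In sorted bulk samples like these, fewer cells of a type and less RNA per cell cannot be told apart.

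The 95% intervals of the limma differences give the range that the spread of the arrays allows for 1 gene in 1 comparison. They are not widened for the number of genes and comparisons, and may not cover the spread between animals. Over the 10 genes the interval end farthest from 0 was a 1.28-fold difference between subsets in PBS mice and 1.62-fold in MDP mice. For MDP against PBS it was 1.40-fold in CD103 low and 1.47-fold in CD103 high cells. These farthest ends belong to Ly75 in every one of the 4 comparisons. For the interaction the farthest end was 1.81-fold. Itgae, the gene of the integrin used for the sort, differed on the same arrays by 4.69-fold between subsets in PBS mice.

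**Figure D1:**
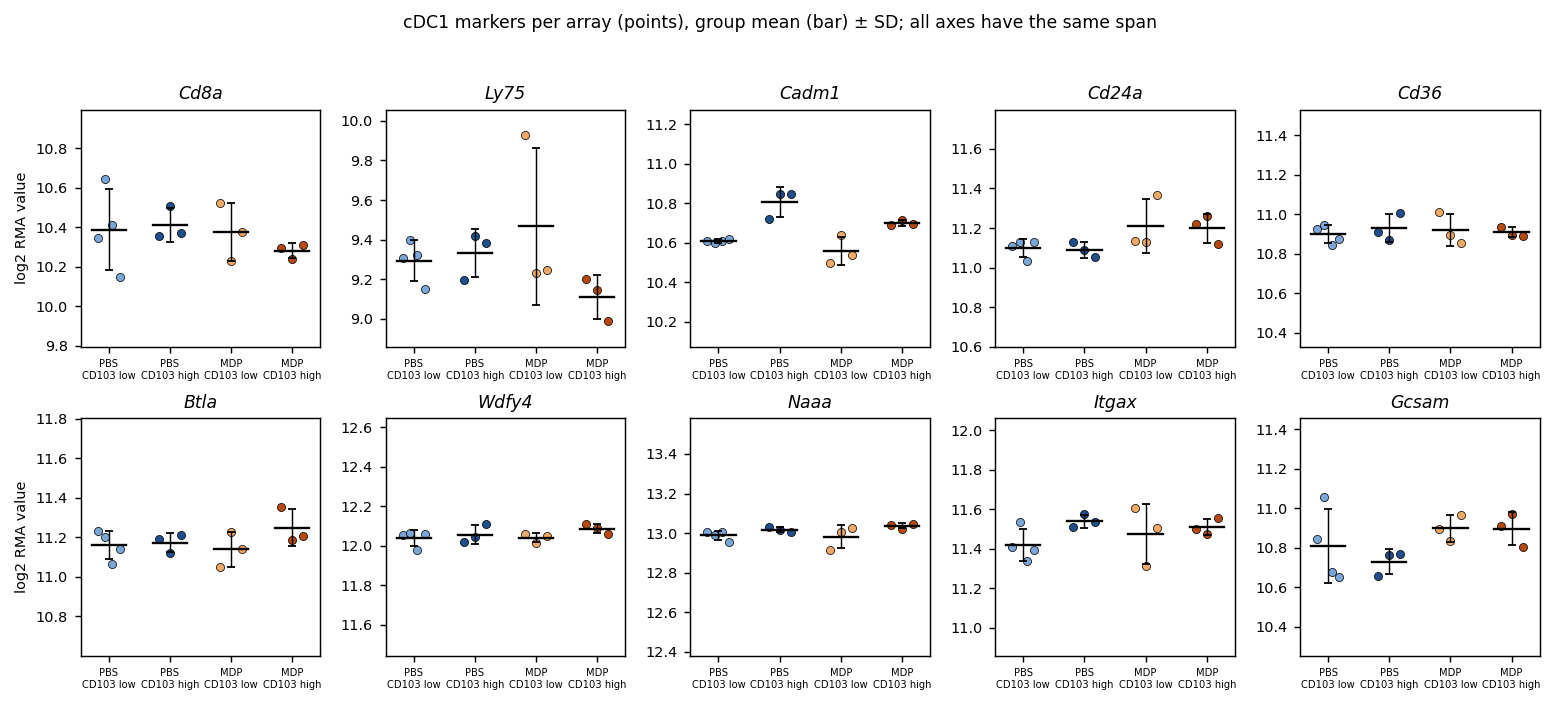
Log2 RMA value (vertical axis) of each of the 10 cDC1 genes on each of the 13 arrays (points) by group, with the group mean as a bar and the SD as a whisker. All panels have the same span, so that the spread can be compared by eye; Wdfy4, Naaa and Cd36 stay within 0.2, while Ly75 spans 0.94 because of 1 MDP CD103 low array.

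The sort markers come first. Cd8a, the alpha chain of CD8, was at 10.35, 10.64, 10.41 and 10.15 in PBS CD103 low, at 10.35, 10.51 and 10.37 in PBS CD103 high, at 10.52, 10.23 and 10.37 in MDP CD103 low and at 10.30, 10.24 and 10.31 in MDP CD103 high cells. The MDP CD103 high arrays lay low but inside the range of both CD103 low groups, and did not overlap PBS CD103 high. That difference was -0.13 ± 0.11 (SE; adjusted p = 0.701, limma), within the spread of the arrays. Between subsets, Cd8a differed by 0.023 ± 0.11 in PBS mice (95% interval -0.21 to 0.25) and by -0.093 ± 0.11 in MDP mice, the latter -0.020 without MDP CD103 low replicate 1.

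Ly75, which encodes the CD205 receptor, was the most variable of the 10. It was at 9.31, 9.40, 9.32 and 9.15 in PBS CD103 low, at 9.19, 9.42 and 9.38 in PBS CD103 high and at 9.20, 9.14 and 8.99 in MDP CD103 high cells. In MDP CD103 low cells it was at 9.93, 9.23 and 9.24. The first of these, replicate 1, was the highest of all 13 arrays, while the other 2 lay inside the PBS range. All 3 MDP CD103 high arrays were below the 3 MDP CD103 low arrays, although the gap between 9.20 and 9.23 was small. The difference between these groups was -0.36 ± 0.16 (SE; adjusted p = 0.451) and fell in size to -0.13 (adjusted p = 0.874) without replicate 1. Likewise, MDP against PBS in CD103 low cells gave 0.17 ± 0.15 (adjusted p = 0.863) with that array and -0.06 without it. The interaction moved from -0.39 to -0.17.

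Replicate 1 of MDP CD103 low cells was also the highest array for Cd36 and Itgax and the lowest for Cadm1, Btla and Naaa, which makes it the extreme array in 6 of 20 cases; the next array, PBS CD103 low replicate 4, had 3. Its mean over 25 measured cell cycle genes was 8.27 against 8.74 and 8.70 in its group. Its mean over 11 measured monocyte and macrophage genes was 6.29 against 5.99 and 6.04. The part of these genes in the value of Ly75 was not tested. Across groups, the mean of the mature genes was 7.80 to 8.05 in PBS CD103 low, 7.96 to 8.36 in PBS CD103 high and 7.12 to 7.40 in MDP CD103 high cells, the group with the lowest mean Ly75. In MDP CD103 high cells, 5 of the 18 mature genes were lower than in PBS CD103 high cells (Birc3, Ccr7, Ccl5, Relb and Cd80), and 18 of 25 cell cycle genes were higher. Of all genes, 1.82% passed in this comparison. Between the subsets of MDP mice, where 0.523% of all genes passed, 3 mature genes were lower (Ccl5, Ccr7 and Cd63) and 6 cell cycle genes higher in CD103 high cells. Both lists were chosen with earlier results of these data known. These counts rest on single arrays. Without any 1 of replicates 2 and 3 of MDP CD103 high and replicates 5 and 6 of PBS CD103 high, 0 mature genes and 1 to 4 cell cycle genes passed in the former comparison, while 14 and 20 passed without MDP CD103 low replicate 1. In the latter, 0 and 0 passed without replicate 2 or 3 of MDP CD103 high, and 2 and 1 without MDP CD103 low replicate 1.

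**Figure D2:**
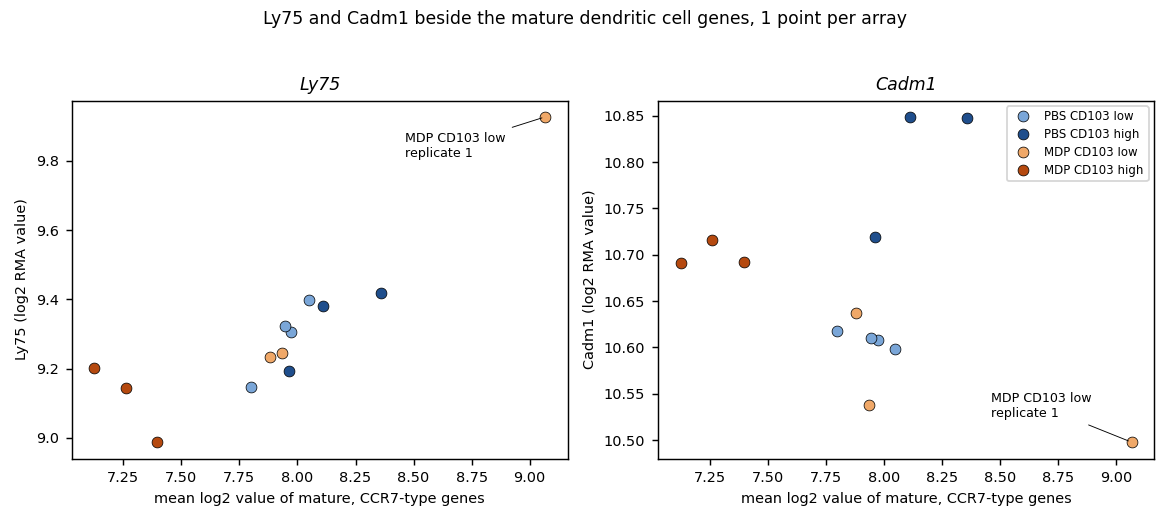
Log2 value of Ly75 (left, vertical axis) and Cadm1 (right, vertical axis) against the mean log2 value of 18 mature, CCR7-type dendritic cell genes (horizontal axes), 1 point per array, coloured by group. MDP CD103 low replicate 1, at a mean of 9.07, has the highest Ly75 (9.93) and the lowest Cadm1 (10.50), and the CD103 high arrays lie above the CD103 low arrays of the same treatment for Cadm1.

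Among the adhesion and surface molecules, Cadm1 had the clearest separation. It encodes a cell adhesion molecule of the immunoglobulin family that binds CRTAM on activated T cells. In PBS mice it was at 10.61, 10.60, 10.61 and 10.62 in CD103 low and at 10.72, 10.85 and 10.85 in CD103 high cells. In MDP mice it was at 10.50, 10.64 and 10.54 in CD103 low and at 10.69, 10.72 and 10.69 in CD103 high cells. Every CD103 high array thus lay above every CD103 low array, across both treatments. How many of all genes have this pattern was not counted. Within a treatment, the subsets did not overlap for 8.53% of all genes in PBS and 14.4% in MDP mice. The order of group means was MDP CD103 low (10.56 ± 0.072, SD), PBS CD103 low (10.61 ± 0.0084), MDP CD103 high (10.70 ± 0.014) and PBS CD103 high (10.81 ± 0.075). Of the neighbours in this order the 2 CD103 low groups overlapped, and the other neighbours did not.

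The size of the Cadm1 difference was small, at 0.20 ± 0.062 (SE) in PBS mice, or 1.15-fold (adjusted p = 0.389), and 0.14 ± 0.066 in MDP mice, or 1.10-fold (adjusted p = 0.491). Averaged over treatments it was 0.17 ± 0.045 (SE), with an adjusted p of 0.242 in limma. When group labels were permuted within each treatment, the two-sided exact p was 0.00143, the smallest that 700 arrangements can give, as 1 of 20 such tests of these genes. In limma with a variance trend and a robust fit the average passed, with an adjusted p of 0.0410. Leaving out any 1 array gave 0.15 to 0.19, with adjusted p from 0.186 to 0.419. Within arrays of high Xist the difference was 0.17 in PBS and 0.17 in MDP mice, and within arrays of low Xist 0.24 and 0.12, each from 1 or 2 arrays a group. MDP averaged over subsets gave -0.078 ± 0.045 (SE), with an exact p of 0.0271, not adjusted for the 20 such tests. In limma the p was 0.107 before and 0.534 after adjustment.

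Cd24a encodes a small, heavily glycosylated protein that is anchored to the membrane by a lipid and is bound by Siglec receptors. It was at 11.11, 11.13, 11.03 and 11.13 in PBS CD103 low, at 11.13, 11.09 and 11.05 in PBS CD103 high, at 11.13, 11.13 and 11.37 in MDP CD103 low and at 11.22, 11.26 and 11.12 in MDP CD103 high cells. Both MDP groups were higher on average than both PBS groups, but each overlapped them. MDP averaged over subsets gave 0.11 ± 0.054 (SE), with an exact two-sided p of 0.0129, not adjusted for the 20 such tests. In limma the p was 0.0608 before and 0.448 after adjustment. Without MDP CD103 low replicate 3, the highest array, it was 0.071. A second, dimmer Cd24a probe set, at a mean of 8.54, was at 8.49 ± 0.28 (SD, n = 4) and 8.42 ± 0.057 (n = 3) in PBS CD103 low and high and at 8.78 ± 0.37 (n = 3) and 8.50 ± 0.039 (n = 3) in MDP CD103 low and high cells. Its SD was larger than that of the first in every group but MDP CD103 high.

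Cd36, a scavenger receptor that binds thrombospondin and dead cells, varied by only 0.17 over all 13 arrays. It ran from 10.85 to 10.95 in PBS CD103 low, from 10.87 to 11.01 in PBS CD103 high, from 10.86 to 11.01 in MDP CD103 low and from 10.89 to 10.94 in MDP CD103 high cells. All 4 groups overlapped. The 4 differences between groups were between -0.022 and 0.032.

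Btla encodes an inhibitory receptor of the immunoglobulin family whose ligand is HVEM, the product of Tnfrsf14. It was at 11.23, 11.20, 11.07 and 11.14 in PBS CD103 low, at 11.19, 11.12 and 11.21 in PBS CD103 high, at 11.05, 11.23 and 11.14 in MDP CD103 low and at 11.36, 11.18 and 11.21 in MDP CD103 high cells. MDP CD103 high replicate 2 was the highest array, and the groups overlapped in every comparison. The difference between the subsets of MDP mice was 0.11 ± 0.077 (SE, adjusted p = 0.689), and 0.056 without that array or 0.064 without MDP CD103 low replicate 1.

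Itgax, the alpha X integrin chain of CD11c, is a general marker of dendritic cells rather than of cDC1 alone. It was at 11.41, 11.54, 11.34 and 11.40 in PBS CD103 low, at 11.51, 11.57 and 11.53 in PBS CD103 high, at 11.61, 11.31 and 11.50 in MDP CD103 low and at 11.50, 11.48 and 11.56 in MDP CD103 high cells. Of the PBS CD103 low arrays, 1 reached the CD103 high range. The difference in PBS mice was 0.12 ± 0.078 (SE, adjusted p = 0.740) and in MDP mice 0.037 ± 0.083. The MDP value rests on single arrays, at 0.10 without MDP CD103 low replicate 1 and -0.045 without replicate 2 of that group.

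The last 3 genes encode intracellular proteins. Wdfy4, a BEACH-domain protein needed by cDC1 for cross-presentation of cell-borne antigen, ran from 11.98 to 12.06 in PBS CD103 low, 12.02 to 12.11 in PBS CD103 high, 12.01 to 12.06 in MDP CD103 low and 12.06 to 12.11 in MDP CD103 high cells. Its MDP CD103 high arrays lay just above the MDP CD103 low arrays, by a mean of 0.046 ± 0.061 (SE, adjusted p = 0.863). Naaa, a lysosomal enzyme that breaks down lipid amides such as palmitoylethanolamide, had group means of 12.99 ± 0.024 (SD, n = 4), 13.02 ± 0.012 (n = 3), 12.98 ± 0.059 (n = 3) and 13.04 ± 0.013 (n = 3) in the order PBS CD103 low, PBS CD103 high, MDP CD103 low and MDP CD103 high. The difference between subsets in the average over treatments had an exact p of 0.0171, not adjusted for the 20 such tests. This difference was 0.042, or 1.03-fold, and the adjusted p in limma was 0.809. Without MDP CD103 low replicate 1, the lowest array for Naaa, it was 0.025 (adjusted p = 0.924). Gcsam, a signalling adaptor best known from germinal centre B cells, was at 10.84, 11.06, 10.68 and 10.65 in PBS CD103 low, at 10.66, 10.76 and 10.77 in PBS CD103 high, at 10.89, 10.83 and 10.97 in MDP CD103 low and at 10.91, 10.97 and 10.81 in MDP CD103 high cells. The MDP CD103 high arrays were all above the PBS CD103 high arrays, by 0.17 ± 0.10 (SE, adjusted p = 0.531).

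Groups that do not overlap are common at these sizes, so the counts were set beside those of all genes. Between the subsets of PBS mice 1 of the 10 genes did not overlap (Cadm1), against 8.53% of all genes. Between the subsets of MDP mice it was 3 (Cadm1, Ly75 and Wdfy4), against 14.4%. For MDP against PBS it was 0 in CD103 low cells, against 5.5%, and 3 in CD103 high cells (Cadm1, Cd8a and Gcsam), against 19.0%. The median absolute difference of the 10 genes was 0.0298, 0.0507, 0.0364 and 0.0905 in these 4 comparisons in turn, and 0.0816, 0.0918, 0.0793 and 0.101 over all genes. Over the genes above the background mark it was 0.0791, 0.0886, 0.0698 and 0.105. The 10 are bright genes, and brightness was not matched.

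**Figure D3:**
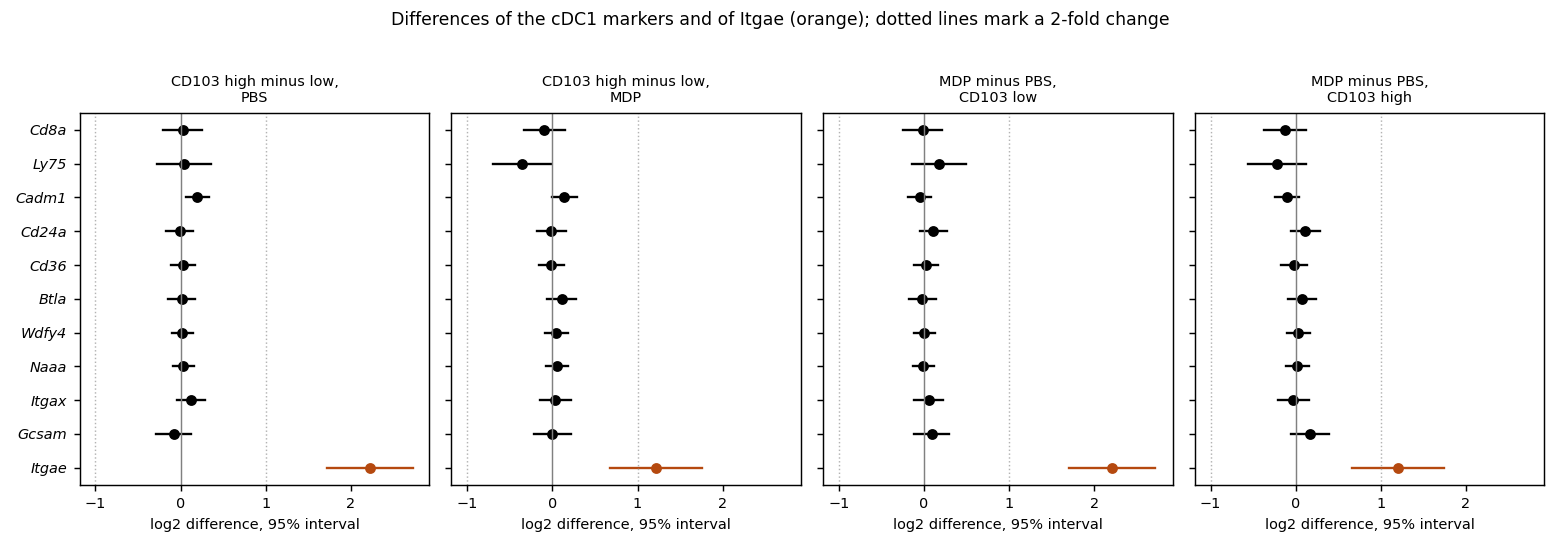
Log2 difference (horizontal axis) of the 10 cDC1 genes (black) and of Itgae (orange) in 4 comparisons, as the limma estimate with its 95% interval; the solid line is 0 and the dotted lines mark a 2-fold change. The intervals of the 10 genes stay within a 1.62-fold change in all 4 panels, while Itgae differs by 2.23, 1.22, 2.21 and 1.198.

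The residual SD, the spread of arrays around their group means, had a median of 0.0784 over the 10, against 0.117 over the 11780 genes with a mean above the olfactory 95th percentile. Naaa (0.0321) was less variable than all but 0.348% of those genes, Wdfy4 (0.0352) than all but 0.552% and Cadm1 (0.0495) than all but 3.15%. At the other end, 89.2% of those genes had a smaller residual SD than Ly75 (0.212), 67.1% than Cd8a (0.144) and 54.0% than Gcsam (0.123). Of the 10, 9 spanned under 0.5 over the 13 arrays, and 3 spanned under 0.2. These are bright genes, and their brightness was not matched in this comparison.

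Of 22 other cDC1 genes on a list, 21 were measured (Clec9a was not analysed here) and all 21 were above background. Itgae was at 8.35, 8.17, 7.73 and 7.46 in PBS CD103 low, at 10.16, 10.22 and 10.07 in PBS CD103 high, at 10.68, 10.07 and 9.64 in MDP CD103 low and at 11.44, 11.10 and 11.51 in MDP CD103 high cells. The sort labels thus held within each treatment, and MDP CD103 low cells reached the level of PBS CD103 high cells. In PBS mice Itgae was 4.69-fold higher in the CD103 high cells (adjusted p = 0.00376). With MDP it was 4.62-fold higher in CD103 low (adjusted p = 0.00838) and 2.29-fold higher in CD103 high cells (adjusted p = 0.0290). Between the subsets of MDP mice it was 2.33-fold with an adjusted p of 0.0529, and 0.0406 without MDP CD103 low replicate 1. Without any 1 array the PBS difference still passed (adjusted p up to 0.0466). The MDP difference in CD103 low cells did not pass without MDP CD103 low replicate 2 (adjusted p = 0.0788) or PBS CD103 low replicate 4 (0.0566), in a fit of the compared arrays alone (0.331) or with a variance trend and robust fit (0.0569). The one in CD103 high cells did not pass without any 1 of the 6 CD103 high arrays (0.0610 to 0.124). The other 20 measured genes of the list passed in none of the 7 limma comparisons, where 0.00451% to 1.82% of all genes passed.

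Irf8, a transcription factor that specifies the lineage, varied by 0.10 over the 13 arrays, from 12.18 to 12.28. Batf3, its partner in that role, ran from 11.00 to 11.34, and Xcr1, a chemokine receptor that marks cDC1, from 9.84 to 10.16. Nfil3, a transcription factor upstream in the lineage, was 8.47 ± 0.074 (SD, n = 3) in MDP CD103 high against 8.96 ± 0.27 (SD, n = 3) in PBS CD103 high cells, a difference of -0.50 ± 0.12 (SE) with an adjusted p of 0.0507. It passed when MDP CD103 low replicate 1 was left out (0.0390), likewise replicate 4 of PBS CD103 high (0.0370), and in the fit with a variance trend (0.0197). It did not pass without replicate 2 of MDP CD103 high, where no gene of the list did, nor in a fit with the replicate number as a block. Clnk, a signalling adaptor, and Rab7b, a small GTPase of late endosomes, had the next smallest p after Itgae in 2 further comparisons; they and Cd207 were picked out after their values were seen. Clnk differed by 0.38 ± 0.13 (SE, adjusted p = 0.426) between the subsets of PBS mice, and Rab7b by -0.26 ± 0.089 (SE, adjusted p = 0.744) between MDP and PBS in CD103 low cells. Cd207, the lectin langerin, had the next smallest p in the average over treatments, at 0.72 ± 0.19 (SE, adjusted p = 0.243). The median difference of the 21 was 0.0531 between the subsets of PBS mice and 0.0463 in MDP mice, and -0.0103 and -0.0287 for MDP in CD103 low and high cells, against -0.0030, -0.0144, 0.0042 and -0.0131 over all genes.

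**Figure D4:**
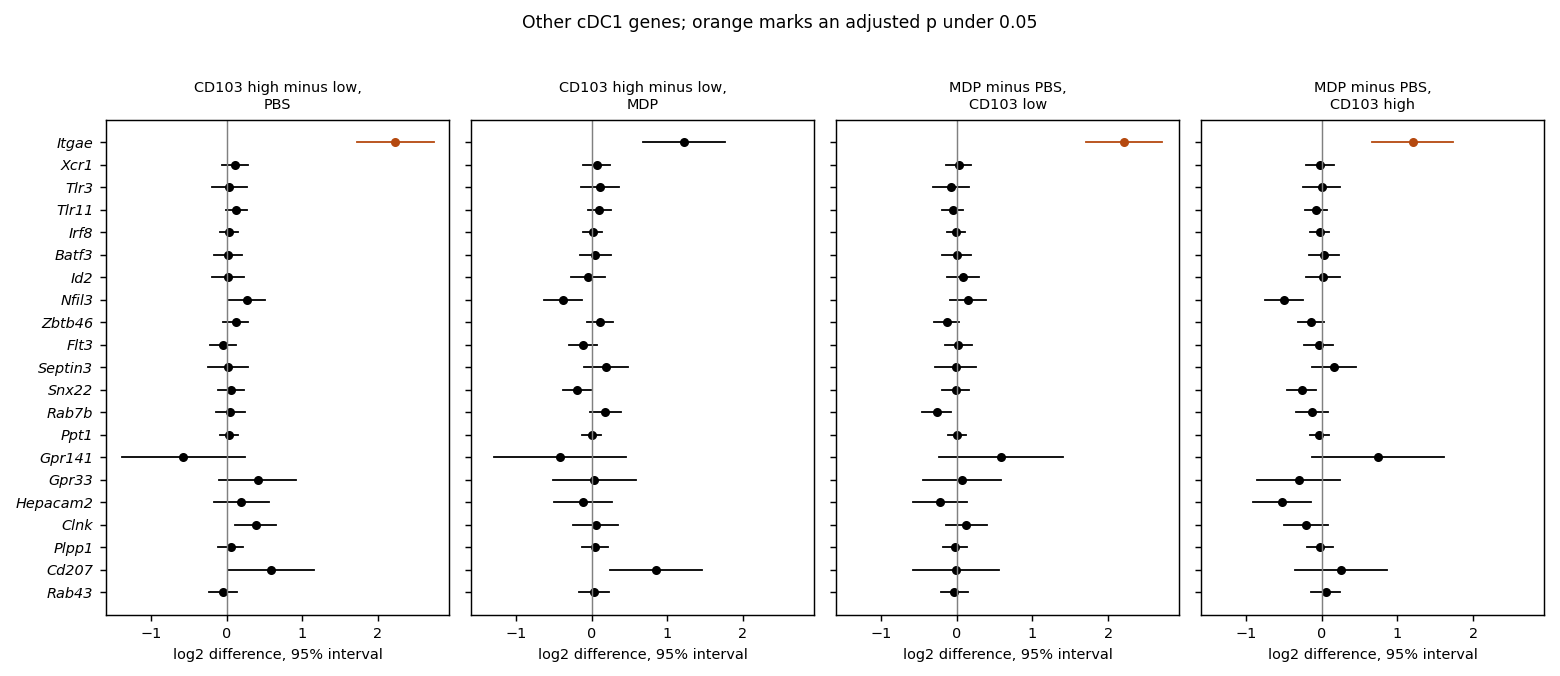
Log2 difference (horizontal axis) of the 21 other measured cDC1 genes in 4 comparisons, as the limma estimate with its 95% interval; orange marks an adjusted p under 0.05. Itgae passes in 3 of the 4 panels, at 2.23, 2.21 and 1.198, and the other 20 genes pass in none.

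Known partners of the 10 proteins did not pass either. Of 15 listed, 13 were measured (Lyn and Hsp90ab1 were not analysed here), 11 were above background, and 0 passed in any of the 7 comparisons. Of all genes, 0.00451% to 1.82% passed in those comparisons, so a count of 0 among 13 does not set the partners apart. Cd8b1, the beta chain that pairs with Cd8a on T cells, ran from 5.19 to 6.02 over the arrays, with a mean of 5.69, not far above the background mark of 5.11. It had the smallest p of the list for MDP in CD103 high cells, at -0.33 ± 0.14 (SE, adjusted p = 0.323). Asah1, a lysosomal ceramidase related to Naaa, had the smallest p between the subsets of MDP mice, at -0.18 ± 0.079 (SE, adjusted p = 0.467). Thbs1, a thrombospondin that binds Cd36, was at 3.99 to 4.87, below the background mark, and so was Crtam, the binding partner of Cadm1, at 4.03 to 4.66. Tnfrsf14 was at 8.09 to 8.50 and Itgb2, the beta chain that pairs with Itgax, at 10.45 to 10.65.

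Several of these markers are shared with other cells, so markers of those cells were read beside them. For T cells, which carry Cd8a, 8 of 10 markers were measured and 5 lay above the background mark (Cd8b1, Cd4, Cd5, Thy1 and Lat). Cd3e (mean 4.65), Cd3d (4.54) and Cd3g (3.66) did not. Cd4 had the smallest p of the list between the subsets of PBS mice, at 0.46 ± 0.14 (SE, adjusted p = 0.366, limma). In MDP mice the Cd4 difference was 0.039. The mean of the T cell list was 5.23 to 5.29 in PBS CD103 low, 5.27 to 5.34 in PBS CD103 high, 5.29 to 5.34 in MDP CD103 low and 5.15 to 5.30 in MDP CD103 high cells. For B cells, which carry Btla and Cd24a, 7 of 8 were measured and 1 lay above the mark, Ms4a1 at a mean of 6.90, while Cd79a was at 3.87 and Cd79b at 5.02; the list means were 4.62 to 4.87, 4.66 to 4.81, 4.69 to 4.88 and 4.67 to 4.72 in the same order. For monocytes and macrophages, which carry Cd36 and Itgax, 8 of 11 measured markers lay above the mark, with list means of 5.84 to 6.15, 5.96 to 6.07, 5.99 to 6.29 and 5.79 to 5.95.

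Of the other lists, 5 of 8 cDC2, 7 of 8 plasmacytoid dendritic cell, 1 of 8 neutrophil, 0 of 6 erythroid, 1 of 6 natural killer cell and 2 of 6 melanoma markers lay above the mark. Of all 22180 genes, 11780 lay above it. The only calls in these marker lists were Sirpa, a cDC2 receptor, lower in CD103 high than in low cells of MDP mice (-0.50), and Pacsin1, higher in the CD103 high subset of PBS mice (0.90) and lower with MDP in CD103 high cells (-0.77). Sirpa did not pass in 6 of the 13 fits that left out 1 array (adjusted p up to 0.138), nor with Xist as a covariate (0.0669) or in a fit of the compared arrays alone (0.172). Pacsin1 did not pass in 7 and 2 of the 13 (up to 0.189 and 0.0714), nor, in PBS mice, in a fit of the compared arrays alone (0.160). The part of these cells in the values of the 10 genes was not tested.

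For each marker, the genes with the highest Pearson's r over the 13 arrays were taken from 11780 candidates. The best of so many candidates can have a high r with an unrelated marker, and how high was not tested. The arrays share groups and hybridisation, and r is given as a description. Ly75 was most like Marcksl1 (r = 0.96), Tnfrsf1b (0.95) and Glipr2 (0.95). Its span over the arrays was set by MDP CD103 low replicate 1, and r without that array was not computed. Cadm1 was most like Plpp3 (0.93), Plb1 (0.92) and E330020D12Rik (0.91), and Naaa like Alpl (0.95), Neto2 (0.90) and Poglut2 (0.88). Cd8a was most like H2-Q4 (0.90), Tada3 (0.90) and Tprgl (0.89), Gcsam like Tuba1a (0.91), 0610040B10Rik (0.89) and Jun (0.89), and Itgax like Nbeal2 (0.90), Zfp276 (0.85) and Dnase1l3 (0.83). For the remaining 4 the best r was 0.89 (Wdfy4 with Rgs11), 0.87 (Btla with Chaserr), 0.85 (Cd24a with Cln6) and 0.84 (Cd36 with Scaper). Among the 10 themselves, the 45 pairs had a median r of 0.20, from -0.75 for Ly75 with Naaa to 0.64 for Cd8a with Ly75, so they did not move as 1 block. MDP CD103 low replicate 1 was the highest array for Ly75 and the lowest for Naaa, and the r of this pair without it was not computed.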

How the data were processed

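Per the labels, RNA of the sorted cells was extracted with Trizol and 400 ng of it amplified and biotinylated, and RNA of poor quality was left out. The authors deposited log2 values of 41345 probe sets on 13 arrays, made with RMA in Affymetrix Expression Console per the submitters' processing notes, with the versions and genome build not given in the sources used here. Quantile normalisation in RMA makes the distributions of arrays alike, so a shift shared by most genes is removed. Probe sets with 1 gene symbol (23521) were reduced to 22180 genes by the highest mean; 1814 had several symbols and 16010 none. No gene was dropped for a low value. A single limma model (version 3.58.1, R 4.3.3) held all arrays, with lmFit, contrasts.fit and eBayes, 1 mean per group, 9 residual degrees of freedom, two-sided tests and Benjamini-Hochberg adjustment per comparison at 0.05, and the script was tested on simulated data. Fold changes are 2 to the power of the log2 difference. Averages over 2 strata were also tested by exact permutation of single values over 700 arrangements, and these 20 tests of the 10 genes were not adjusted for their number. The number of arrays limits the precision. Named genes were the 10 genes, sort and lineage markers, list genes past the threshold (otherwise the 2 with the smallest p) and the 3 genes most like each member. The genes, lists, motifs and alternatives were chosen with earlier results of these data known, and the boundary between high and low Xist was set after seeing the values. Python 3.11.15 (pandas 2.3.3, numpy 2.4.6) made the tables and matplotlib 3.10.9 the plots.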

Additional observations from a re-analysis of the deposited data

Results flagged for a closer look

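Wdfy4 in PBS CD103 low cells was picked out because 1 array lay far from the others of its group. Replicate 4 was at 11.98 while the other 3 arrays lay at 12.06, a gap of 0.90036 of the range of the group. The gap is 0.074 on the log2 scale, and Wdfy4 stayed within 0.128 over all 13 arrays. Only the PBS CD103 low group, with 4 arrays, is large enough for this test, and 11 genes were tested in it, so that chance alone gives about 1 such array in 20 genes.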

How the results depend on the processing

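The differences of the 10 genes were recomputed under 20 alternative settings in the 4 comparisons of 2 groups and 19 in the averages and the interaction, giving 1370 values. Of these 1 passed the threshold, Cadm1 in the average over treatments with a variance trend and a robust fit, so that 1 of 10 genes passed there in place of 0. The sign of an uncalled difference changed in 80 cases, in 35 of 70 results, with a largest size of 0.0767, and 14 values moved by over 1 residual SD. Leaving out single arrays left 0 of the 10 called in all 7 comparisons. Replicate numbers recur between groups without a stated meaning. Deviations of same-numbered arrays correlated at -0.13 to 0.40 (median 0.12, 5 of 9 pairs over 0.1). For arrays of different numbers the median was -0.03, with 10 of 54 over 0.1. Same-numbered CD103 low and high arrays of 1 treatment correlated at 0.25 and 0.12 in MDP mice and at 0.22 and 0.29 in PBS mice. The main fit did not use the numbers as pairs, and pairs within a treatment were not tested. A fit with the replicate number as a block joins the same number across treatments. It also leaves fewer residual degrees of freedom than the 9 of the main fit, which lowers its power. In the block fit, 0 of the 10 and 0 of all genes passed in each of the 7 comparisons. The adjusted p of Itgae was then 0.0568 to 0.361 in the 5 it had passed.

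Counts over all genes depend more on the setting. In the order subsets in PBS, subsets in MDP, MDP in CD103 low, MDP in CD103 high, average over treatments, average over subsets and interaction, they were 17, 116, 1, 403, 28, 41 and 16. With a variance trend and robust fit they were 25, 192, 0, 609, 87, 187 and 116, and among the genes above the olfactory range 21, 227, 1, 696, 83, 201 and 134. Fitting only the arrays compared gave 1, 0, 0 and 200 for the first 4. Xist as a covariate gave 42 for the subsets in MDP, 6 for the average over treatments and 0 for the interaction. Leaving out 1 array gave 2 to 23, 0 to 140, 0 to 2, 82 to 594, 3 to 23, 3 to 120 and 0 to 107. The cause of these changes was not tested.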

Other observations

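Some deposited values recur exactly between arrays. Cd24a has the value 11.1299 on 4 arrays and Naaa the value 13.0044 on 4, to every digit deposited. Of the 10 genes these 2 share a value among 3 or more arrays, against 24.1% of all genes and 16.7% of those above the olfactory 95th percentile. How such ties bear on the spread within groups was not tested.

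Cd24a is the only one of the 10 genes with more than 1 probe set. With the mean of its 2 probe sets in place of the brighter one, the difference between the subsets of MDP mice was -0.15 (adjusted p = 0.720, limma) in place of -0.011, and that of MDP against PBS in CD103 low cells was 0.20 (adjusted p = 0.818) in place of 0.11.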
